A study of Mus musculus with 4 samples.

Results

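The fatty acid oxidation and ketone body genes of mouse liver are described here by the MafG peaks that lie on and around them. The members are 30 named genes out of 21887 protein-coding genes on the placed chromosomes. They come from a list of the pathway's genes, which was chosen with earlier results of these data known. Of the 30, 22 encode mitochondrial proteins and 8 were counted as peroxisomal, with Eci2 and Crat, whose products are found in both organelles, among the 8. All 30 were found by symbol in the RefSeq gene table of GRCm38.p6, the assembly also called mm10.

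Chromatin immunoprecipitation with sequencing had been carried out on fixed livers of C57BL6/J mice. In 2 libraries the livers overexpressed MafG fused to the BLRP peptide tag (treatment label Ad BLRP MAFG), and in 2 libraries they had received the BLRP control (Ad BLRP Control). The same antibody against the tag was used in all 4, and no age is given in the sources used here. Values come from 1 list of 68763 peaks, called on 1 BLRP-MafG tag collection of 20406492 tags over 1 control collection of an implied 1.72e+07 tags. The headers do not say whether a collection combined the libraries of its group. Values per library are missing from the list, so no spread between animals can be given, and a gene's RNA was not measured. MafG was overexpressed in every tagged library, so its native occupancy was not measured, and a peak list cannot show whether the tissue expresses liver markers.

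Peak height is the normalized tag count, the number of BLRP-MafG tags in a peak scaled by the authors to 10000000 tags in total. Intervals in parentheses are exact 95% Poisson intervals for tag counts and exact 95% conditional binomial intervals for ratios to control, and they cover counting error only. The peak caller kept only sites with at least 10 times the control signal, and few control tags at a peak are partly a result of that limit. A gene with no listed peak may still hold weaker signal. Positions are on mm10, distances run from a peak's midpoint to the nearer end of the gene, and neighbouring genes can share a peak. The gene table gives no exons, so a peak inside a gene was not assigned to an exon or an intron.

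Beta-oxidation shortens fatty acids by repeated rounds of dehydrogenation, hydration, a further dehydrogenation and thiolysis. Long chains are activated to acyl-CoA and carried into mitochondria by the carnitine shuttle, and the liver turns much of the resulting acetyl-CoA into ketone bodies during fasting. Peroxisomes shorten very long and branched chains by a parallel set of enzymes and pass the products on as carnitine esters. MafG is a small MAF protein that binds DNA as a dimer, through antioxidant response elements when paired with a CNC factor such as NRF2, and has no transactivation domain of its own.

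All 30 genes had at least one listed MafG peak lying within 10 kb of an end, whereas 69.2% of all protein-coding genes did. Within 1 kb of an end, 14 of 30 had one, against 24.5% of all protein-coding genes, and 21 of 30 held a peak inside the gene, against 50.5%. Members ran from 5.25 to 65.0 kb in length, with a median of 25.9 kb against 17.2 kb for all protein-coding genes. Among the 12836 protein-coding genes within that range of lengths, 75.8% had a peak within 10 kb, 27.7% within 1 kb and 53.7% inside the gene. No test was made of these shares, and the part that gene length plays in them was not tested beyond this restriction.

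The member genes and the 10 kb on either side of them spanned 1378 kb and held 91 distinct peaks, a density of 6.60 peaks per 100 kb. The same stretches around all protein-coding genes held 3.29 peaks per 100 kb. The median peak near a member had a normalized tag count of 13.2 (quartiles 8.33 and 27.2), against 12.3 (quartiles 7.84 and 23.5) over the 68711 listed peaks on placed chromosomes. Per length, peaks were thus about as tall as elsewhere and more closely spaced than around all protein-coding genes together. The density was not taken over genes within the members' range of lengths alone. Longer members held more peaks, with a Spearman rank correlation of 0.77 between gene length and number of peaks over the 30 genes. Length and the height of the highest peak had a rank correlation of 0.20. Both are descriptions over genes, which share the same tag collections.

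Control tags were few at these peaks, as over the list as a whole. Of the 91 peaks, 36 (39.6%) had 0 control tags, against 44.4% of the listed peaks on placed chromosomes. The most was 7, at an Acsl5 peak. Counting error limited the single ratios: in 14 of the 91 the interval of the ratio lay wholly above 10. The same count was not made over all listed peaks.

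**Figure D1:**
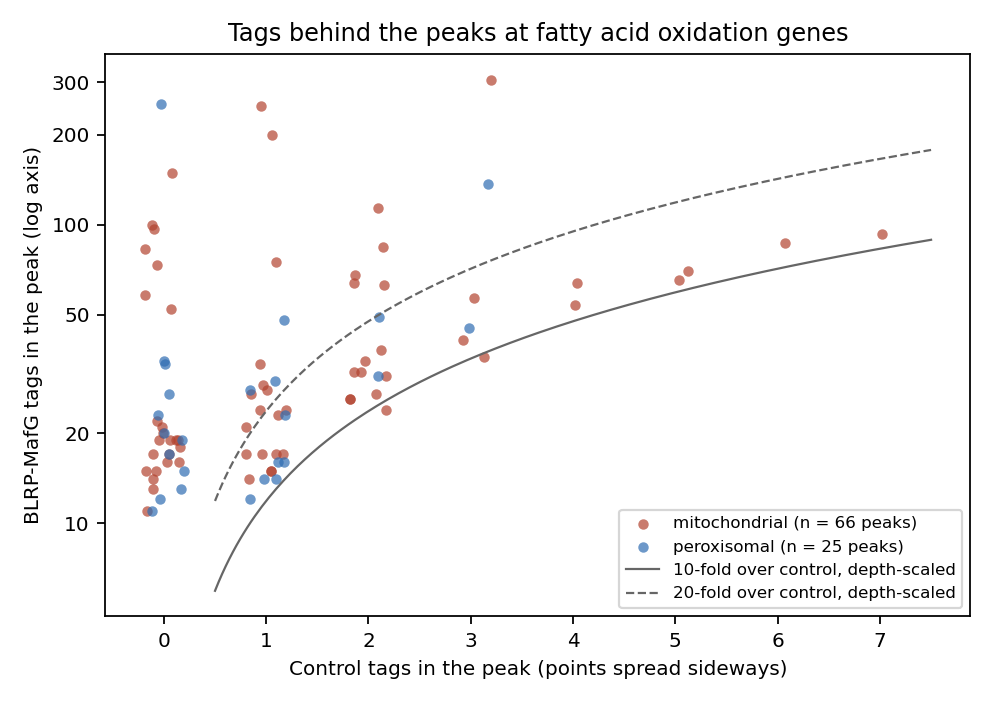
Each point is 1 of the 91 distinct peaks in or within 10 kb of a fatty acid oxidation gene, with control tags on the x axis, BLRP-MafG tags on a logarithmic y axis and colour by organelle. The lines mark 10-fold and 20-fold over control after scaling to depth. Points are spread sideways around their whole control count, at which each peak passes 10-fold; the peaks with 4 to 7 control tags are all mitochondrial and all lie between the lines.

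Read by gene, the highest peak in the gene or within 10 kb had a median height of 31.1 over the 30 members (quartiles 15.9 and 47.0), against 13.7 over all protein-coding genes, with genes lacking a peak at 0. No restriction by gene length was made for these medians. At the upper end the members stood closer to the background. A peak of 50 or more was found at 6 of 30 members and 17.1% of all protein-coding genes, and one of 100 or more at 3 of 30 and 7.53%. The members' highest peaks ranged from 8.82 at Hadhb to 150.0 at Acadm. In 15 members the highest peak lay inside the gene and in 15 outside it, and in 9 members another protein-coding gene held that peak or lay nearer to it. The same shares over all protein-coding genes were not taken. With each peak given only to its nearest gene, the median was 16.2 over the members, against 10.3 over all protein-coding genes.

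**Figure D2:**
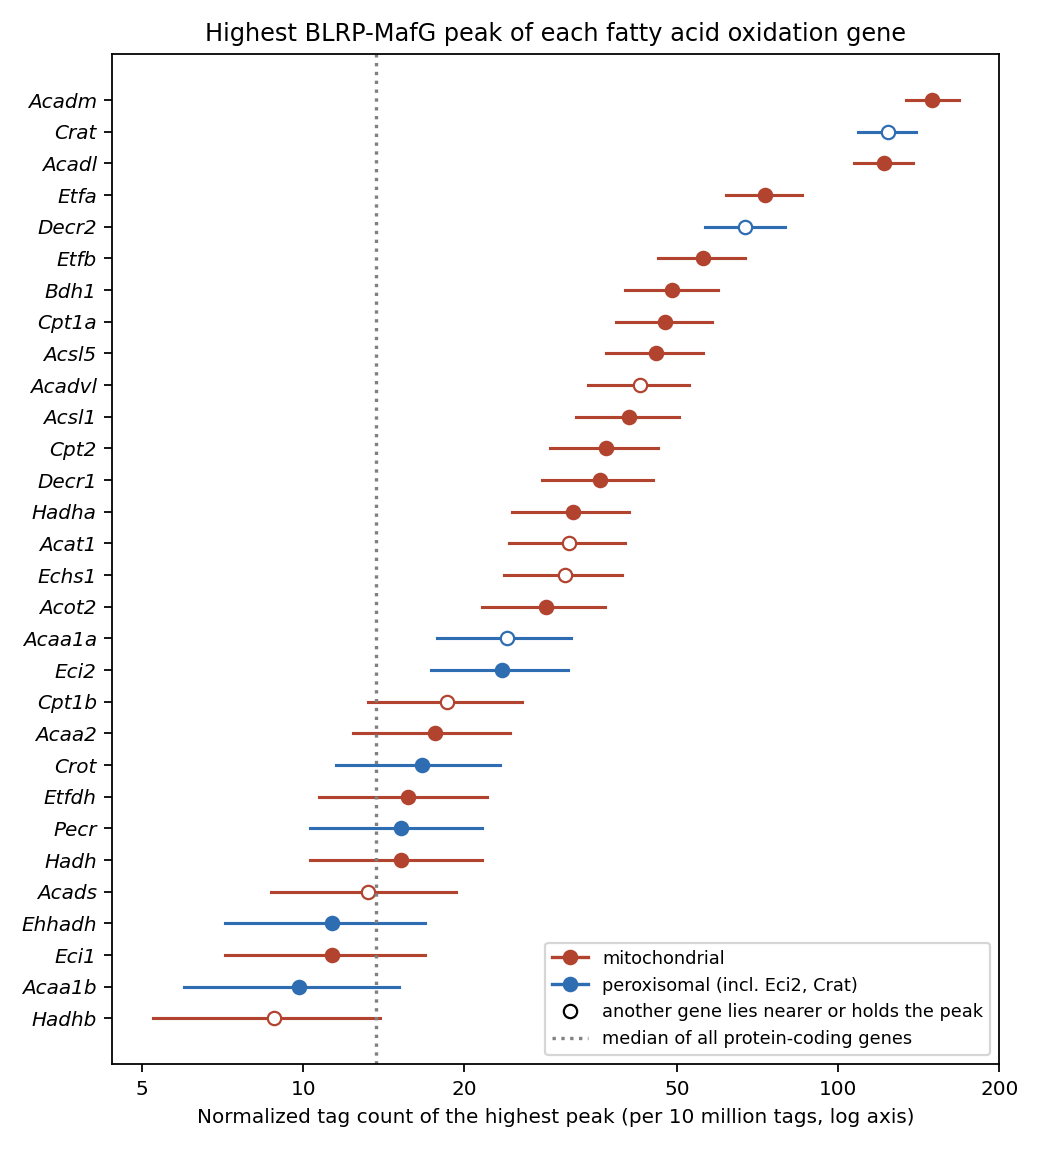
The normalized tag count of the highest peak in the gene or within 10 kb, on a logarithmic x axis, is shown for each of the 30 genes with its exact 95% Poisson interval. Open circles mark the 9 genes whose highest peak lies nearer to, or inside, another protein-coding gene, and the dotted line is the median of all protein-coding genes, 13.7. Acadm, Crat and Acadl stand above 100, and 5 genes lie below the dotted line.

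Peaks at the very start of a gene were low but frequent among these genes. RefSeq promoter sequences (GRCm38.p6) were matched for 25 of the 30 members, 27 starts in all; Cpt1b, Decr1, Acaa2, Acat1 and Crat had no entry. Of the 25, 11 had a peak within 1 kb of a start, against 21.7% of the 17492 protein-coding genes with an entry. In 8 of the 25 the midpoint of a peak lay between 250 bases before and 50 bases after a start, against 10.4%. These 8 were Echs1, Etfb, Etfa, Etfdh, Eci1, Ehhadh, Bdh1 and, at its second start, Acsl1. Their promoter peaks had normalized tag counts of 30.9 for Echs1, 15.7 for Etfb, 11.3 for Eci1, 11.3 for Ehhadh, 9.80 for Etfdh, 9.31 for Etfa, 8.33 for Acsl1 and 6.86 for Bdh1. All 3 genes of the electron transfer flavoprotein chain are in this set.

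The 250 bases before each start were searched on both strands for the antioxidant response element cores TGACNNNGC and TGAGNNNGC, the Maf core TGCTGA, and the DR1 element, the direct repeat bound by PPAR with RXR. A Maf core can overlap an antioxidant core. Among the 8 starts with a peak, Ehhadh matched TGACNNNGC, Echs1 matched TGAGNNNGC and Etfb matched TGCTGA at 2 places. Each of these motifs was thus found at 1 of the 8. In the same order, they were present in 15.3%, 19.4% and 20.7% of the 1936 protein-coding promoters with such a peak. The match in Ehhadh is centred 33 bases from the peak's midpoint, that in Echs1 64 bases, and the nearer one in Etfb 16 bases. The sequences below run 5′ to 3′ along the gene's strand, with matches in capitals. Ehhadh is shown because its match lies under the peak, and Etfa, Etfdh and Eci1 as 3 of the 5 starts with a promoter peak and none of the 4 motifs in these 250 bases, the others being Bdh1 and the second start of Acsl1.
Ehhadh, chr16:21787835-21788084, minus strand: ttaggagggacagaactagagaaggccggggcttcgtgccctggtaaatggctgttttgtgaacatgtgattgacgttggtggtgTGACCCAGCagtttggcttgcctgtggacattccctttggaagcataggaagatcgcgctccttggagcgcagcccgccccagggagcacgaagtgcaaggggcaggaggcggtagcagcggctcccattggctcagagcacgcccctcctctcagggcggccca
Etfa, chr9:55512244-55512493, minus strand: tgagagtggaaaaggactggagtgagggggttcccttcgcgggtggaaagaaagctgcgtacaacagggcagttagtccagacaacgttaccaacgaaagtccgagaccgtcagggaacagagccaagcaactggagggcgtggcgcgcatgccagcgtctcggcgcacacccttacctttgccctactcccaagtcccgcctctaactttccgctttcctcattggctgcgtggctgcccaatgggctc
Etfdh, chr3:79628768-79629017, minus strand: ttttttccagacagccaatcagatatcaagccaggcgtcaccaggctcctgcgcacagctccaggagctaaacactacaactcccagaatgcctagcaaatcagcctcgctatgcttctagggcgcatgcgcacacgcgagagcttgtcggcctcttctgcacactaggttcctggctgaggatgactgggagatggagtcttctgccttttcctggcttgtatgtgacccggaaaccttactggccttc
Eci1, chr17:24426433-24426682, plus strand: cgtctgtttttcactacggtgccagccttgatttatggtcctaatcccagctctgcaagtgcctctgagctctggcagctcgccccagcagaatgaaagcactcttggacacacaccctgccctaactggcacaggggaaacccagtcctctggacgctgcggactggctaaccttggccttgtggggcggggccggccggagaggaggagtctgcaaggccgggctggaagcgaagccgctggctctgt
The promoters of Echs1 and Etfb overlap the neighbouring genes Paox and Cldnd2, and only the 30 bases around the match are shown.
Echs1, chr7:140116494-140116523, minus strand: cctctgtaccaGCCCGCTCAggtcacgggt
Etfb, chr7:43443895-43443924, plus strand: ataaataagcccTCAGCAaacttcactcct

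Across all 21263 protein-coding promoters, TGACNNNGC was present in 10.4%, TGAGNNNGC in 14.8%, TGCTGA in 14.9% and the DR1 element in 0.0423%. Of the 27 member promoters, 1 held TGACNNNGC, 5 held TGAGNNNGC, 3 held TGCTGA and 0 held the DR1 element. Only the exact DR1 repeat was counted, and 9 of all 21263 promoters held it. The 0 of 27 therefore says nothing of sites that differ from it in any fixed letter. The further matches lay at Acaa1a, Acadm, Acsl5, Acot2 and Pecr, whose promoter windows held no peak midpoint. A match is a description of the letters, and its absence says only that these letters are not in the window.

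The tallest peaks of the mitochondrial genes lay inside the acyl-CoA dehydrogenase genes, whose products carry out the first oxidation of each round and differ in chain length. Acadm, for medium chains, held a peak of 150.0 (134 to 168) at chr3:153934149-153934349, 10394 bp inside its start. With 3 control tags its ratio was 86.0 (29.2 to 420), and 1.82% of listed peaks were as tall or taller. Acadl, for long chains, held 2 tall peaks, one of 122.0 (107 to 138) at chr1:66861912-66862112, 1297 bp inside its start, and one of 98.0 (84.9 to 113) at chr1:66841573-66841773, deeper in the gene. Both had 1 control tag, which gave ratios of 210 (37.4 to 8330) and 169 (29.9 to 6700), or 70.0 and 56.2 against a floor of 3 control tags. The intervals of the 2 Acadl peaks overlap, and that of the lower one does not reach Acadm's.

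The other 2 acyl-CoA dehydrogenase genes had lower peaks. Acadvl, for very long chains, had 1 peak, of 42.6 (34.1 to 52.6) at chr11:70008424-70008624, which lies 1659 bp beyond its end and inside Dvl2. That peak had 6 control tags and a ratio of 12.2 (5.40 to 34.2). Acads, for short chains, held a peak of 9.31 (5.61 to 14.5), and one of 13.2 (8.72 to 19.3) lay 9638 bp beyond its end, closer to Sppl3. The intervals of Acadm and Acadl lay wholly above those of Acadvl and Acads. No peak lay within 1 kb of an end of any of the 4.

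Electrons from these dehydrogenases pass to the electron transfer flavoprotein, of which Etfa and Etfb encode the subunits, and on to its ubiquinone oxidoreductase, encoded by Etfdh. All 3 genes had a low peak at the start, given above, and Etfa and Etfb also had a taller one elsewhere. That of Etfa, of 73.0 (61.8 to 85.7), lay 6768 bp beyond its end at chr9:55447568-55447768, with 0 control tags. Its ratio was 41.9 against the floor of 3 tags, with a lower limit of 33.7. Etfb held a peak of 55.9 (46.1 to 67.1) at chr7:43447798-43447998, 3826 bp inside its start, with 2 control tags and a ratio of 48.1 (13.0 to 402). Etfdh had 3 peaks within its length or just outside it, and none passed the 15.7 (10.7 to 22.1) of one 432 bp inside its start. The interval of that peak lies below those of the tall Etfa and Etfb peaks, which overlap each other.

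**Figure D3:**
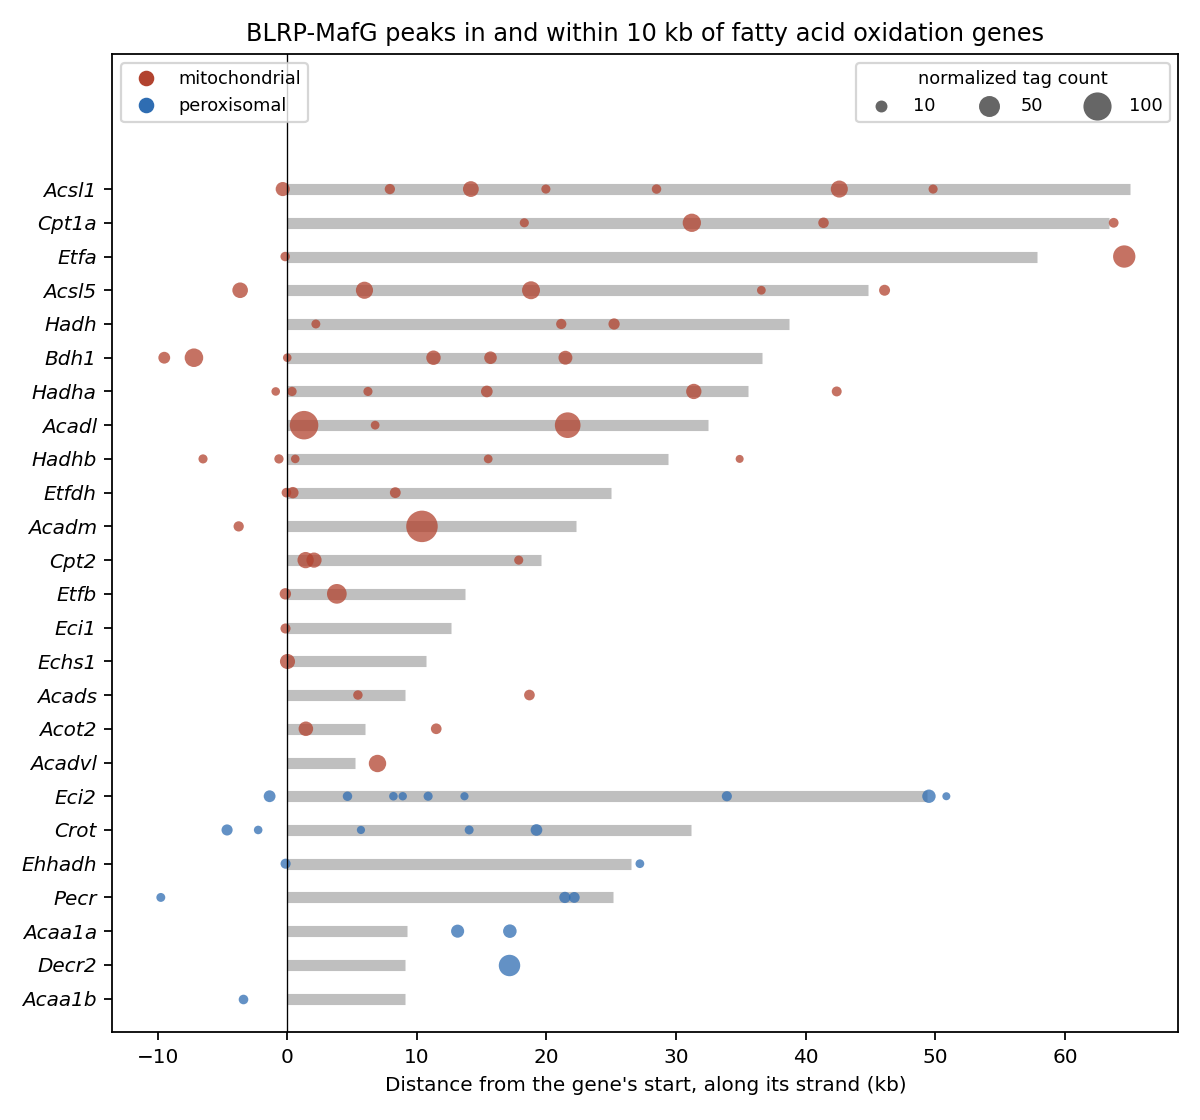
Peaks in and within 10 kb of the 25 members whose strand is known are placed by their distance in kb along the gene's strand. The distance runs from the first base of the gene's span in the gene table. Grey bars are these spans, circle area grows with the normalized tag count, and colour gives the organelle. For Eci2 the annotated start lies well inside the bar. The tall peaks of Acadm, Acadl and Etfb lie inside the gene and those of Etfa and Decr2 beyond its end, while circles at 0 kb are small.

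Genes of fatty acid activation and entry had peaks of middling height. Acsl1 and Acsl5 encode long-chain acyl-CoA synthetases. Acsl1 had 7 peaks, the highest of 40.7 (32.4 to 50.4) at chr8:46513529-46513729 inside the gene, where the control had 0 tags and the ratio by the floor was 23.3 (lower limit 18.6). One of 26.5 (19.9 to 34.5) lay 349 bp before its first start, with 4 control tags and a ratio of 11.4 (4.20 to 43.3). Acsl5 had 5 peaks, the highest of 45.6 (36.8 to 55.8) at chr19:55270568-55270768. That peak had 7 control tags and a ratio of 11.2 (5.23 to 28.6), so it stood close to the caller's limit, whereas the next, of 41.2 (32.8 to 51.0), had 2 control tags and a ratio of 35.4 (9.51 to 297). The highest peaks of both genes and of both carnitine palmitoyltransferases of liver had overlapping intervals.

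Cpt1a, the liver form of the outer carnitine palmitoyltransferase and the rate-controlling step of entry, held its highest peak, of 47.5 (38.5 to 58.0), deep inside the gene at chr19:3353440-3353640. With 0 control tags, the ratio was 27.3 against the floor (lower limit 21.8). Its only peak within 10 kb of an end was one of 10.3 (6.37 to 15.7), 351 bp beyond the end of the gene. Cpt2, the inner transferase, held peaks of 36.8 (28.9 to 46.1) at chr4:107922071-107922271 and 31.4 (24.2 to 40.0) at chr4:107921426-107921626, both within 2063 bp of its start. The first had 1 control tag, which put it at 63.3 (11.0 to 2530) times control and at 21.1 by the floor. Cpt1b, the muscle form, had 1 peak, of 18.6 (13.2 to 25.6), 251 bp outside one end at chr15:89426013-89426213 and slightly closer to the choline kinase gene Chkb. Its ratio was 16.0 (4.14 to 137) with 2 control tags. Acot2, a mitochondrial acyl-CoA thioesterase gene, held a peak of 28.4 (21.6 to 36.7), 1436 bp inside its start.

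The later steps of each round are hydration, the further dehydrogenation and thiolysis, and the highest peaks of their 5 genes ranged from 8.82 to 31.9. Echs1, short-chain enoyl-CoA hydratase, had 1 peak, of 30.9 (23.7 to 39.5) at chr7:140116344-140116544, 23 bp before its start and inside the polyamine oxidase gene Paox. It was the highest of the 17 distinct peaks within 1 kb of a member's end, and its ratio was 26.6 (7.06 to 224) with 2 control tags. The other 16 ran down to 6.37, at Acat1. The median of the 17 was 10.3, against 13.4 for the 74 peaks farther away.

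Hadha and Hadhb, the subunits of the mitochondrial trifunctional protein, are divergent neighbours with 272 bp between them. They shared 3 peaks, of 8.33, 8.82 and 6.86, of which the last 2 flank the gap, 367 bp inside Hadha and 617 bp inside Hadhb. The highest near Hadha, of 31.9 (24.6 to 40.6) at chr5:30123514-30123714, lay toward its far end with 5 control tags and a ratio of 11.0 (4.47 to 34.9). Nothing near Hadhb passed 8.82 (5.23 to 13.9). Hadh, the short-chain hydroxyacyl-CoA dehydrogenase gene, held 3 peaks of up to 15.2 (10.3 to 21.6), and the thiolase gene Acaa2 held 1, of 17.6 (12.4 to 24.4) with 3 control tags and a ratio of 10.1 (3.20 to 51.4).

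Double bonds in unsaturated chains are handled by isomerases and reductases. Decr1, the mitochondrial dienoyl-CoA reductase gene, held 4 peaks, the highest of 35.8 (28.0 to 45.0) at chr4:15937571-15937771 with 0 control tags. Its ratio was 20.5 against the floor, with a lower limit of 16.3. Eci1, the mitochondrial enoyl-CoA isomerase gene, had a single low peak of 11.3 (7.14 to 16.9), 206 bp before its start, with 1 control tag; over control it stood at 19.4 (3.15 to 799), and at 6.47 by the floor. The intervals of the 2 genes do not overlap.

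Both ketone body genes had several peaks. Bdh1 encodes the dehydrogenase that interconverts acetoacetate and beta-hydroxybutyrate, and had 6. The highest, of 49.0 (39.9 to 59.6), lay 7199 bp before its start at chr16:31414998-31415198 with 0 control tags, and its ratio was 28.1 against the floor (lower limit 22.4). One of 6.86 lay on the start itself. Acat1, the mitochondrial acetoacetyl-CoA thiolase gene, had 5. The highest, of 31.4 (24.2 to 40.0) at chr9:53575787-53575987, lay 4635 bp outside it and 260 bp from Npat, and the others did not pass 10.3.

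The peroxisomal genes had mostly low peaks, apart from those of Crat and Decr2. Crat, the carnitine acetyltransferase gene, had a peak of 124.0 (109 to 140) at chr2:30399251-30399451, 1125 bp outside one end and inside the dolichyl pyrophosphatase gene Dolpp1. With 0 control tags its ratio was 71.1 against the floor, with a lower limit of 57.4. Inside Crat itself the one peak reached 13.2 (8.72 to 19.3). Decr2, the peroxisomal dienoyl-CoA reductase gene, had 1 peak, of 67.1 (56.4 to 79.4) at chr17:26073109-26073309, with 3 control tags and a ratio of 38.5 (12.9 to 189). It lay 7999 bp beyond the end of Decr2 and 3132 bp from Rab11fip3.

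The remaining 6 peroxisomal genes did not pass 24.0. Ehhadh, the peroxisomal bifunctional enzyme and a classic PPARα target, had the promoter peak of 11.3 (7.14 to 16.9) at chr16:21787862-21788062, 128 bp before its start, and one of 7.35 beyond its end. The first had 1 control tag, which put it at 19.4 (3.15 to 799) times control and at 6.47 by the floor. The thiolase genes Acaa1a and Acaa1b are close copies, so mapping may have divided reads between them. Acaa1a had peaks of 22.1 and 24.0 (17.8 to 31.7), both beyond its end and closer to or inside Xylb, and Acaa1b had 1 of 9.80 (5.99 to 15.1), 3444 bp before its start. Crot, the carnitine octanoyltransferase gene, had 5 peaks of up to 16.7 (11.5 to 23.3), and Pecr, the peroxisomal trans-2-enoyl-CoA reductase gene, had 3 of up to 15.2 (10.3 to 21.6). Eci2, an enoyl-CoA isomerase gene, had 9 peaks, the most of any member. Its span in the gene table runs to 35027115, well before its annotated start at chr13:34994144 on the minus strand. Most of the 9 peaks lay at -19299 to -34332 bp from that start, and so before it. The highest Eci2 peak, of 23.5 (17.3 to 31.2), lay 141 bp beyond the gene's end at chr13:34977507-34977707, with 1 control tag. Over control it stood at 40.5 (6.93 to 1630), and at 13.5 by the floor.

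Set side by side, mitochondrial genes had the taller and closer peaks in the full list, but part of this order depended on the required excess over control. The median of the highest peak in the gene or within 10 kb was 33.8 in the 22 mitochondrial and 20.1 in the 8 peroxisomal genes. Counting only peaks within 10 kb of an end, it was 29.6 and 19.4. A peak inside the gene was found in 17 of 22 and 4 of 8, and one within 1 kb of an end in 12 of 22 and 2 of 8, Eci2 and Ehhadh. All protein-coding genes stood at 50.5% inside and 24.5% within 1 kb, so these counts of the 8 peroxisomal members lay at the background. The further pathway genes, given below, did not show the same order of the organelles in height or within 1 kb. The density was 6.33 and 7.46 peaks per 100 kb. Median gene length was 27.6 kb in the mitochondrial and 20.3 kb in the peroxisomal genes, and its part in these differences was not tested. With only peaks at 20-fold over control or more, by the fold in the authors' deposited table, which counts 0 control tags as 0.5, the median within 10 kb became 12.8 in mitochondrial and 19.1 in peroxisomal genes, which turns the order. The count within 1 kb then became 6 of 22 and 2 of 8, against 15.0% of all protein-coding genes, and within 10 kb 16 of 22 and 8 of 8, against 54.4%.

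The mitochondrial genes without a peak within 10 kb at that limit were Acaa2, Acadvl, Acsl1, Cpt1a, Cpt1b and Eci1. Cpt1a and Acsl1 keep their highest peaks at 20-fold, with deposited folds of 163.65 and 140.03. Those peaks lie inside the gene more than 10 kb from either end, and so do not count within 10 kb. The medians in the gene or within 10 kb were 31.1 in mitochondrial and 20.1 in peroxisomal genes at that limit. A peak inside the gene was then found in 16 of 22 and 4 of 8. On these measures the order stayed. With Eci2 and Crat counted as mitochondrial, the median within 10 kb was 29.6 in 24 mitochondrial and 14.9 in 6 peroxisomal genes. When each peak was given only to its nearest gene, it was 16.6 and 12.2. No test was made between the classes, which hold few genes.

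**Figure D4:**
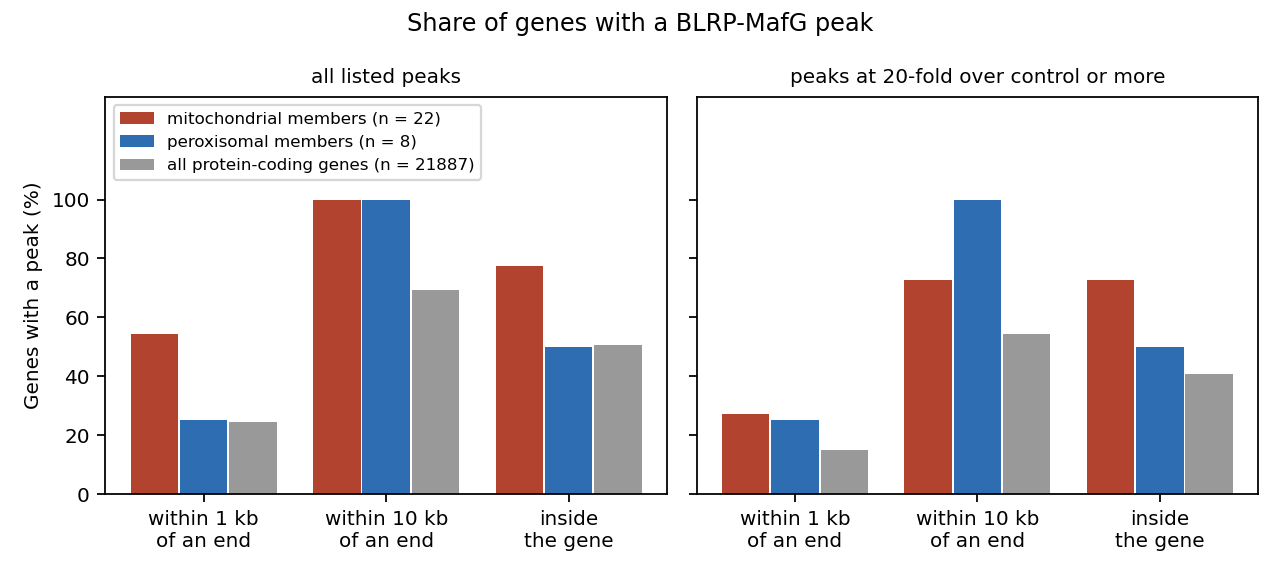
Bars give the percentage of genes with a peak within 1 kb of an end, within 10 kb of an end and inside the gene, for mitochondrial members, peroxisomal members and all protein-coding genes, with all listed peaks on the left and peaks at 20-fold over control or more on the right. All members have a peak within 10 kb on the left, and on the right 16 of 22 mitochondrial and 8 of 8 peroxisomal members do; at 1 kb the mitochondrial bar drops from 12 to 6 of 22.

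A further 41 genes of the pathway, none of them members, also mostly had peaks nearby. A peak lay within 10 kb of an end in 38 of them, within 1 kb in 20 and inside the gene in 30, against 69.2%, 24.5% and 50.5% of all protein-coding genes in that order. The 41 had a median gene length of 31.2 kb, against 17.2 kb for all protein-coding genes, and the part of length was not tested. The median of their highest peak in the gene or within 10 kb was 18.6, against 13.7 over all protein-coding genes. By group, the 14 genes of peroxisomal uptake and oxidation had a median of 18.4, and the 11 of further mitochondrial steps 8.82. Within 1 kb of an end, 9 of the 14 and 5 of the 11 had a peak, and 10 and 8 held one inside. In median and in count within 1 kb, this is not the mitochondrial-over-peroxisomal order of the members. Mcee, the methylmalonyl-CoA epimerase gene, and Pex11a, a peroxisome division gene, had no listed peak in the gene or within 10 kb. The highest were near Slc27a2, an acyl-CoA synthetase gene, at 691 (655 to 728), and inside Acox3, a peroxisomal acyl-CoA oxidase gene, at 618.9 (585 to 654). The Slc27a2 peak is closer to Hdc. The Acox3 peak, at chr5:35591641-35591841 and 8760 bp from the nearer end, had 1 control tag, which put it at 1070 (191 to 42100) times control and at 355 by the floor, and the interval of its tag count lies above that of every member.

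The next 4 of those genes are regulators of the pathway. Ppargc1b, a coactivator gene, held a peak of 349.9 (325 to 377), and Lpin1, a phosphatidate phosphatase and coactivator gene, one of 219.5 (200 to 241). Ppard, a nuclear receptor gene, held one of 127.4 (112 to 144), and Acacb, whose product makes the malonyl-CoA that inhibits Cpt1, one of 104.9 (91.3 to 120). The last had 8 control tags and a ratio of 22.6 (11.2 to 52.9). All 4 peaks lay inside the gene named. The 11 regulators had a median gene length of 71.9 kb, longer than that of the members.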

How the data were processed

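ChIP-seq against a peptide tag was done on 4 mouse liver libraries, 2 of BLRP-MafG and 2 of BLRP control. The submitters' processing notes name Bowtie2, HOMER and the mm10 build, without versions. Per the file headers, HOMER findPeaks called 200 bp peaks on 1 BLRP-MafG tag collection over 1 control collection, with limits of 10-fold over control (Poisson p 1e-06) and 4-fold over the local 10 kb. The deposited signals are the BLRP-MafG tag count, which the authors scaled to 10000000 tags, and the unscaled control tags, with 0.5 in place of 0. The deposited fold values are linear ratios.

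Normalized counts were turned back into whole tags (largest deviation 0.10 tags) for exact 95% intervals. Where the control had 0 tags, the ratio uses a floor of 3 control tags and stands beside the exact lower limit, which lies below it; where it had 1 tag, both the counted ratio and the one by the floor are given. Peaks were placed by their midpoint against a RefSeq gene table of GRCm38.p6, and strands and promoters came from the RefSeq promoter table of that build. All 30 members and 41 further pathway genes were found. Python 3.11.15, pandas 2.3.3, NumPy 2.4.6, SciPy 1.17.1 and Matplotlib 3.10.9 were used, and the placement, intervals and motif search were tested on simulated data.

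The members, classes and gene lists were chosen with earlier results of these data known, so counts are given beside those of all protein-coding genes and no set test was made. Every member is named with its highest peak in the gene or within 10 kb; of the other pathway genes, only the 6 highest and those without a peak are. Alternatives were a fold of at least 20 over control, peaks at or above the list's median height, any overlap in place of the midpoint, the nearest gene only, Eci2 and Crat as mitochondrial, and windows of 5 and 50 kb; annotated starts in place of either end were added after the data were examined. No genome sequence was used here.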

Additional observations from a re-analysis of the deposited data

How the results depend on the processing

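Counts within 1 kb of a gene end and the highest peak of single genes moved most. In a window of 5 kb the highest peak of 3 of 30 members left its interval (Etfa 73.0 to 9.31, Bdh1 49.0 to 27.9, and Decr2 from 67.1 to no listed peak). In one of 50 kb that of 15 of 30 did, such as Eci1 from 11.3 to 112.7 and Acaa1b from 9.80 to 78.4. By construction, a narrower window can only keep or lower the highest peak, and a wider one can only keep or raise it. With peaks at 20-fold over control or more, members with a peak within 1 kb fell from 14 to 8. Mitochondrial members fell from 12 to 6, and their median highest normalized tag count within 10 kb went from 29.6 to 12.8. With peaks at or above the list's median height, the members within 1 kb were 6, the mitochondrial ones 5 and the peroxisomal ones 1, against 2 in the full list. With Eci2 and Crat counted as mitochondrial, 1 peroxisomal member remained within 1 kb. The share of all protein-coding genes within 1 kb moved too, from 24.5% to 15.0% at 20-fold and 11.2% above the median height. Any overlap, the nearest gene and annotated starts kept each count within 1.5 times. With the nearest gene only, 25 of 30 members had a peak within 10 kb, against 57.0% of all protein-coding genes. The members' median highest peak in the gene or within 10 kb then fell from 31.1 to 16.2. Over all protein-coding genes it fell from 13.7 to 10.3. No paired analysis was possible because the list holds no value per library, and leaving out a replicate could not be run for the same reason. The median peak held 25 BLRP-MafG tags, so single ratios are known only roughly.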

Other observations

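Beyond 10 kb, 7 of the 30 members had a peak of 100 or more between 10 and 50 kb from an end, most of them inside other genes. The tallest, of 285.2 (263 to 309), lay 26167 bp from Acsl5 inside Vti1a, and one of 148.5 (132 to 166) lay 42976 bp from Acsl1 inside Cenpu. One of 161.2 lay 44120 bp from Echs1 and closest to Olfr522. Those near Eci1, Decr1 and Pecr, of 112.7, 101.4 and 114.2, lay inside Mlst8, Calb1 and Xrcc5. The one near Bdh1, of 123.0 (108 to 139) with 2 control tags, lay 42269 bp away at chr16:31501070-31501270 and had no closer protein-coding gene. Counting the gene and 50 kb on either side, 10 of 30 members had a peak of 100 or more, against 16.4% of all protein-coding genes. For 10 to 50 kb alone, the share of all protein-coding genes was not taken.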
